A study of Mus musculus with 8 samples.

Results

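The nuclear genes for respiratory complexes II to V and for cytochrome c were followed in whole embryonic mouse kidneys of 2 stages and 2 genotypes. The members were all genes of the array whose symbol named a succinate dehydrogenase subunit (Sdha to Sdhd), a subunit of complex III (Uqcr genes and Cyc1), cytochrome c (Cycs), a subunit of cytochrome c oxidase (Cox4 to Cox8 genes) or a subunit of ATP synthase (Atp5 genes). This gave 48 of 18194 named genes, read by 96 of 45101 probe sets, and the probe set with the highest mean over 8 arrays stood for its gene. Of these, 44 genes were bright enough to be counted, which asked for a mean signal at or above the 40th percentile, and Cox7a1, Cox7b2, Cox7c and Cox8b were not.

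Embryos of one genotype and stage were combined, and RNA of each pool was hybridized to 2 Affymetrix Mouse Genome 430 2.0 arrays. The E14.5 control pool held kidneys of 23 embryos, the E14.5 mutant pool of 17, the E18.5 control pool of 14 and the E18.5 mutant pool of 9. Mutants were Lim1 flox/lacZ and carried the Rarb2-Cre transgene, which drives Cre in the metanephric mesenchyme, and they had 1 null allele in every cell of the kidney, the ureteric bud included. Controls were Lim1 flox/+ with the same transgene, so they too had 1 floxed allele and Cre, but no lacZ allele. The flox and lacZ lines were kept on C57BL/6J and 129/SvEv, the Cre line was made on C57BL/6J and SJL/J, and the embryos came from crosses of these lines. The arrays of a pool are separate target preparations of 1 RNA, so each condition has 1 biological replicate, the ranges below measure technical spread only, and no p-value was computed. Lim1, now named Lhx1, is a transcription factor needed for the nephron to form from the mesenchyme.

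Complex II (succinate dehydrogenase) takes electrons from succinate of the citric acid cycle, complex III passes them from ubiquinol to cytochrome c, and complex IV hands them to oxygen. Complexes III and IV pump protons, and complex V, the ATP synthase, lets them flow back through a rotating ring and makes ATP. Kidney tubules, above all the proximal tubule, are among the tissues richest in mitochondria because they reabsorb salt and solutes all the time. Some complex IV subunits exist as a general form and as forms restricted to muscle, lung, testis or other tissues. Subunits encoded by mitochondrial DNA were not part of the set.

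The nuclear factors NRF1 and GABP (an ETS factor) are known regulators of many respiratory genes, and promoter stretches of 6 members whose signals are described below were taken from RefSeq (GRCm38.p6). Each line gives the 150 bases before the annotated start, 5′ to 3′ in the direction of the gene, with capitals for the letters GCGCANGC (NRF1 core) or CCGGAA (ETS core) read on either strand. Sdhb (chr4:140961121-140961270, plus strand) and Cycs (chr6:50566570-50566719, minus strand) held an NRF1 core, 54 and 60 bases before the start, and no ETS core in the stretch shown. An ETS core of Sdhb lay just after the start, outside that stretch. Sdhd (chr9:50603850-50603999, minus strand) and Atp5h (chr11:115419920-115420069, minus strand) held both cores. Atp5g1 (chr11:96075632-96075781, minus strand), with the widest ratio between the E18.5 pools, and the muscle isoform Cox7a1 (chr7:30184021-30184170, plus strand) held neither core in the stretch shown.
Sdhb promoter: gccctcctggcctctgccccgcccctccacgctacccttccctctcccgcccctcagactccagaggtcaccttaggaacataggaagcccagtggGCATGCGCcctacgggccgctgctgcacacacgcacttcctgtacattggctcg
Sdhd promoter: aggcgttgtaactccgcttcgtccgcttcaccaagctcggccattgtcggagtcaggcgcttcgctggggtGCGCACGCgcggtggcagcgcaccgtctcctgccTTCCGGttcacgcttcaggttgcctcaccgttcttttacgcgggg
Cycs promoter: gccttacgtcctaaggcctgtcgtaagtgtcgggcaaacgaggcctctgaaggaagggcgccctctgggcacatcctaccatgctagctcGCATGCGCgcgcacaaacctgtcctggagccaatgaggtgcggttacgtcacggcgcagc
Atp5h promoter: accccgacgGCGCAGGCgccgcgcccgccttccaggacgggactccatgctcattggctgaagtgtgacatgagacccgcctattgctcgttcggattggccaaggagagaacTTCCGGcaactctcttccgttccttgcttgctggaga
Atp5g1 promoter: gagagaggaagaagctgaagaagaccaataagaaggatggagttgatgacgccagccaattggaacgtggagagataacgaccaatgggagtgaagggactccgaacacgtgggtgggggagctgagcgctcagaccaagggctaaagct
Cox7a1 promoter: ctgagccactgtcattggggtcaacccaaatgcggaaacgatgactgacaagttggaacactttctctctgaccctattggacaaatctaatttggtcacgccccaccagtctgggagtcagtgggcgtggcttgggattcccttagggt
From 250 bases before to 50 bases after the start, the NRF1 core stood in 15 of the 36 members with a window (41.7%), against 11.2% of all 27025 genes of the RefSeq table and 20.5% of the 10720 genes that were also bright enough on the arrays. The ETS core stood in 16 of the 36 (44.4%), against 16.7% and 28% of the same genes. None of the 4 tissue-restricted isoforms with a window held either core. A match says only that these letters are present, and matches were not compared with the signals of the genes.

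Array medians lay between 225 and 243, which are not the medians stated for the normalized arrays, a gap that was not resolved. The median fold between duplicate arrays was 1.06 to 1.15 over the 13441 genes counted and 1.04 to 1.11 over the members. It was highest in the E18.5 mutant pool, where 34 of 44 members were higher on array 2, by a median of 1.10-fold. The kidney markers Pax8, Wt1, Gata3 and Hoxd11 were above the minimum in all 4 pools. Lhx1, the targeted gene, was lower in the mutant on 1 of its probe sets and not on the other at each stage: the first gave 388 and 365 in the E14.5 control, 323 and 290 in the E14.5 mutant, 342 and 382 in the E18.5 control and 459 and 379 in the E18.5 mutant, and the second gave 449 and 517, 563 and 554, 370 and 352, and 296 and 333 in the same order. Where these probe sets lie relative to the deleted part was not examined, so they do not check the labels.

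Respiratory genes rose between E14.5 and E18.5 in control kidneys, as a group did not do so in mutant kidneys, and were higher in E18.5 control than in E18.5 mutant kidneys. A gene was called separated where the lowest array of the higher pool was at least 25% above the highest array of the other and both arrays of the higher pool reached their own 40th percentile. From E14.5 to E18.5 in controls, 31 of 44 members were separated and higher and 0 lower, against 16.1% higher and 7.16% lower of all genes counted. The median member ratio was 1.53 (range over the 4 array pairings 1.51 to 1.60), or 0.62 on the log2 scale, where the median of all genes was 0.02. Between the E18.5 pools, control over mutant, 34 of 44 were separated and higher and 0 lower, against backgrounds of 6.93% and 1.78%. The median ratio was 1.53 (1.49 to 1.65), and 42 of 44 members were above 1.

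The mutant pools gave another picture. From E14.5 to E18.5 the median member ratio was 0.966 (0.860 to 0.988), with 2 members separated and higher and 4 lower, near the backgrounds of 6.14% and 7.45%. The log2 median of −0.05 turned to 0.05 after quantile normalization, so it has no settled direction. The number separated and lower was 9 without E18.5 mutant array 2, and the number separated and higher was 5 without E18.5 mutant array 1 or without E14.5 mutant array 1. Between the E14.5 pools the median control over mutant ratio was 0.942 (0.914 to 1.00), with 0 members separated and higher and 1 lower, Uqcrc1, against 0.365% and 1.56% of all genes.

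The study's own criteria of size were also applied, a ratio of at least 2 that exceeds the fold between duplicates, with mean signal times ratio above 100. By these criteria 10 members were higher in the later than in the earlier control pool, against 4.36% of all genes, and 0 were lower, against 1.6%. This count of 10 became 6 after quantile normalization and 5 with the mean over all probe sets of a gene. Between the E18.5 pools 8 members were higher in the control, against 2.06%, and none was lower, against 0.104%. This count of 8 fell to 1 after quantile normalization, to 5 with the mean over all probe sets of a gene, to 5 without E18.5 control array 2 and to 3 without E18.5 mutant array 1, since the ratios lie close to 2. No member met them between the mutant stages, where backgrounds were 1.13% higher and 0.997% lower, nor between the E14.5 pools, where they were 0.0893% and 0%. In whole kidneys, fewer cells of a type and less RNA per cell cannot be told apart, and this holds for every ratio below.

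**Figure D1:**
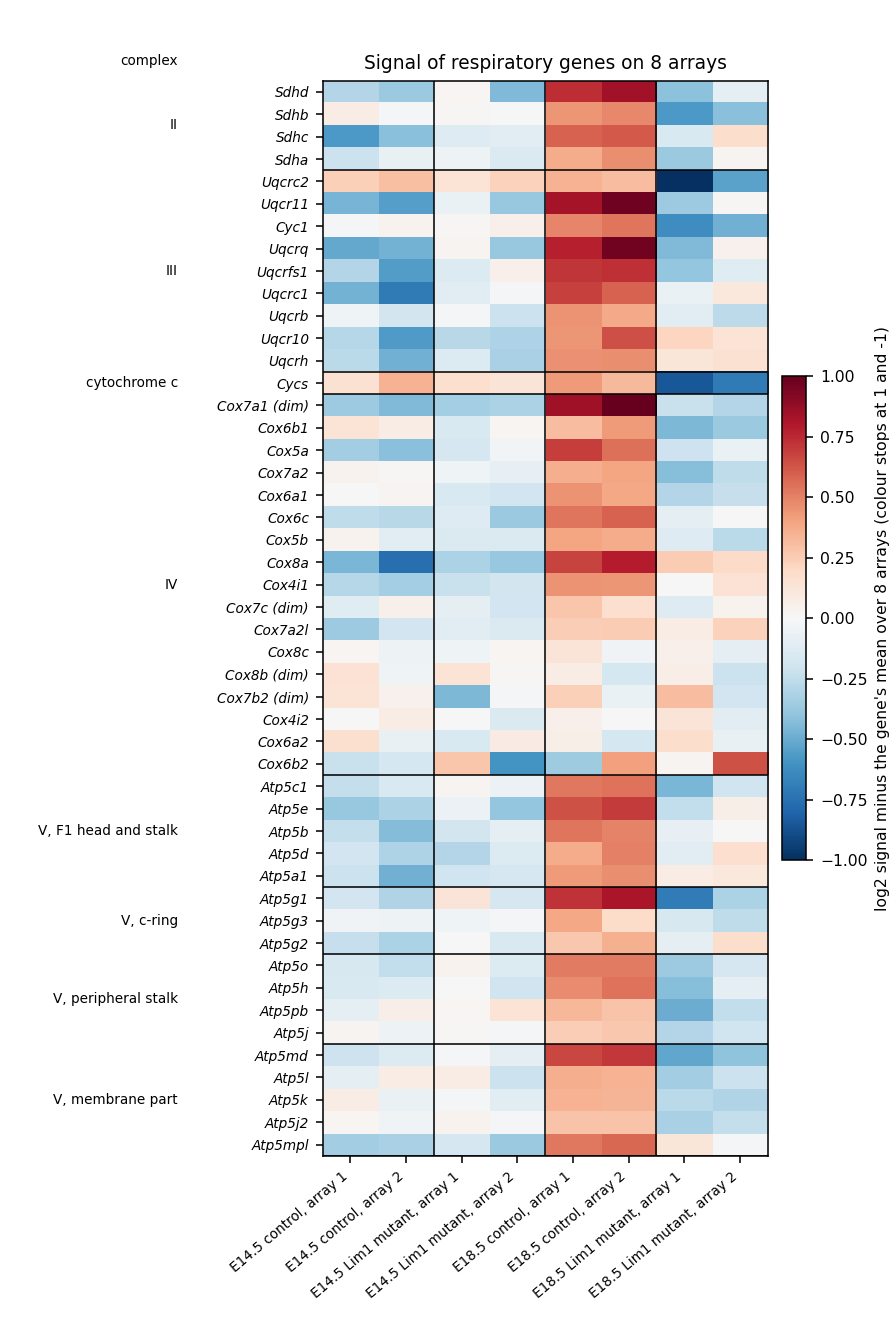
Log2 signal of each of the 48 genes on each of the 8 arrays (columns) minus the mean of that gene over the arrays, as colour, with genes (rows) grouped by complex and ordered by the E18.5 control over E18.5 mutant ratio. The columns of the 2 E18.5 control arrays are red for nearly all genes, while the E18.5 mutant columns are blue for genes such as Cycs and Uqcrc2 and pale red for Cox8a; genes marked dim were not counted.

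All 4 subunits of complex II were separated and higher in the E18.5 control than in the E14.5 control, with a median log2 ratio of 0.83, and all 4 were separated and higher than in the E18.5 mutant, with a median of 0.77. Sdhb carries the iron-sulfur clusters that relay electrons. Its signals were 2847 and 2661 in the E14.5 control, 2726 and 2694 in the E14.5 mutant, 3675 and 3778 in the E18.5 control and 1812 and 2027 in the E18.5 mutant. The stages thus moved in opposite directions, with a ratio of 1.35 (1.29 to 1.42) in controls and 0.708 (0.665 to 0.752) in mutants, and neither pair overlapped.

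Sdhd, a membrane anchor, gave 1155 and 1093 in the E14.5 control, 1437 and 1043 in the E14.5 mutant, 2368 and 2537 in the E18.5 control and 1067 and 1329 in the E18.5 mutant. The E18.5 control stood apart from 3 pools that overlapped, 2.18-fold (2.05 to 2.32) above the E14.5 control and 2.05-fold (1.78 to 2.38) above the E18.5 mutant. Sdhc, the other anchor, gave 1006 and 1124, 1374 and 1398, 2254 and 2300, and 1353 and 1695 in the same order of pools. It rose 2.14-fold (2.01 to 2.29) in controls, and at E14.5 it was lower in the control than in the mutant, at 0.769 (0.720 to 0.818), without meeting the rule of separation. Sdha, the catalytic flavoprotein, had the lowest E18.5 control over mutant ratio of the complex, 1.49 (1.27 to 1.79), from signals of 1729 and 1900, 1931 and 1811, 2586 and 2768, and 1550 and 2039.

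Complex III had the highest medians of complexes II to V with stage in controls and between the E18.5 pools, but not between the mutant stages or at E14.5. Of its 9 subunits, 8 were separated and higher from E14.5 to E18.5 in controls (median log2 0.97) and 7 were separated and higher in the E18.5 control than in the E18.5 mutant (0.97). Between the mutant stages the median was −0.02, and 1 member was separated and higher and 2 were lower. Uqcr11 and Uqcrq are small accessory subunits. Uqcr11 gave 920 and 869 in the E14.5 control, 1215 and 976 in the E14.5 mutant, 2265 and 2496 in the E18.5 control and 984 and 1281 in the E18.5 mutant. Its 2.66-fold (2.46 to 2.87) rise in controls was the steepest of the members counted, and the mutant ratio was 1.03 (0.810 to 1.31). Uqcrq gave 810 and 833, 1176 and 886, 1977 and 2248, and 852 and 1188 in the same order. The pattern was similar, with 2.57-fold (2.37 to 2.78) in controls, 0.990 (0.725 to 1.34) in mutants and 2.07-fold (1.66 to 2.64) between the E18.5 pools.

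The Rieske iron-sulfur protein Uqcrfs1 and the core protein Uqcrc1 also passed 2-fold in controls. Uqcrfs1 gave 1766 and 1466 in the E14.5 control, 1966 and 2238 in the E14.5 mutant, 3547 and 3586 in the E18.5 control and 1657 and 1983 in the E18.5 mutant, a ratio of 2.21 (2.01 to 2.45) in controls and 1.96 (1.79 to 2.16) between the E18.5 pools. Uqcrc1 gave 1387 and 1183, 1779 and 1903, 3094 and 2911, and 1843 and 2080 in the same order. It rose 2.34-fold (2.10 to 2.62) in controls, and at E14.5 the control was separated below the mutant at 0.698 (0.622 to 0.780), the only such member. That call was lost with quantile normalization and with a separation of 1.5-fold.

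Uqcrc2, the second core protein, did not follow its partner with stage in controls by its brightest probe set. It gave 2146 and 2243 in the E14.5 control, 1995 and 2126 in the E14.5 mutant, 2312 and 2250 in the E18.5 control and 892 and 1250 in the E18.5 mutant. The control stages differed by 1.04-fold (1.00 to 1.08), while the E18.5 mutant was separated below the E14.5 mutant at 0.520 (0.420 to 0.627), and the E18.5 control was 2.13-fold (1.80 to 2.59) above the E18.5 mutant. A second probe set of Uqcrc2, with signals of similar size, gave 1.56 (1.48 to 1.65) between the control stages. It gave 0.747 between the mutant stages and 2.12 between the E18.5 pools. The control stage value of Uqcrc2 thus depends on the probe set. Cyc1, the cytochrome c1 that passes electrons on to cytochrome c, gave 2364 and 2463, 2417 and 2489, 3373 and 3484, and 1566 and 1721. It rose 1.42-fold (1.37 to 1.47) in controls, fell to 0.670 (0.629 to 0.712) in mutants and was 2.09-fold (1.96 to 2.23) higher in the E18.5 control than in the E18.5 mutant.

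At the other end, by their brightest probe sets, stood Uqcr10 and Uqcrh, 2 small subunits. Uqcr10 gave 1636 and 1343 in the E14.5 control, 1643 and 1605 in the E14.5 mutant, 2703 and 3116 in the E18.5 control and 2314 and 2189 in the E18.5 mutant, and was separated and higher with stage in both genotypes, 1.95-fold (1.65 to 2.32) and 1.39-fold (1.33 to 1.44). Uqcrh gave 2732 and 2363, 2999 and 2629, 4524 and 4534, and 3583 and 3653. The E18.5 mutant stood at 0.799 (0.790 to 0.808) of the control, the smallest gap of the complex, which did not meet the rule of separation. For control over mutant at E18.5, a second probe set of Uqcrh gave 1.62 (1.37 to 1.94) and one of Uqcr10 gave 1.73 (1.65 to 1.80). That of Uqcr10 gave 1.17 (1.05 to 1.32) between the mutant stages. The place of both genes thus depends on the probe set.

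Cytochrome c itself differed most at E18.5 through the mutant pool. Cycs, the soluble carrier between complexes III and IV, gave 3892 and 4455 in the E14.5 control, 3932 and 3824 in the E14.5 mutant, 4697 and 4386 in the E18.5 control and 1940 and 2142 in the E18.5 mutant. The control stages overlapped at 1.09-fold (0.985 to 1.21), whereas the E18.5 mutant was separated below the E14.5 mutant at 0.526 (0.493 to 0.560) and the E18.5 control was 2.23-fold (2.05 to 2.42) above it. Another pair of Cycs probe sets gave 0.580 and 0.438 between the mutant stages, and the remaining counted probe set gave 1.24. Between the control stages this pair gave 1.24 (1.11 to 1.38) and 0.937 (0.832 to 1.07), and the remaining one 1.10 (1.04 to 1.16). Whether Cycs rose in controls thus depends on the probe set. Cyct, the testis form of the carrier, was not part of the set.

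The general subunits of complex IV had a lower median than complexes II, III and V with stage in controls, but not between the mutant stages or at E14.5. Between the E18.5 pools their median log2 ratio was below those of complexes II and III, though the pairing range overlapped that of complex II. Against complex V the order was not settled, with medians of 0.61 and 0.63 and pairing ranges of 0.61 to 0.67 and 0.57 to 0.62. Among its general subunits, 9 were counted, of which 8 were separated and higher with stage in controls (median log2 0.53), 7 in the E18.5 control against the mutant (0.61) and 1 with stage in mutants, Cox8a (median −0.04). Cox5a, one of the subunits that covers the core from the matrix side, gave 2855 and 2728 in the E14.5 control, 3231 and 3561 in the E14.5 mutant, 5863 and 5329 in the E18.5 control and 3148 and 3469 in the E18.5 mutant. This was 2.00-fold (1.87 to 2.15) between control stages and 1.69-fold (1.54 to 1.86) between the E18.5 pools. A second probe set of Cox5a gave 1.08 and 1.76 for the same ratios, so the stage value depends on the probe set and the genotype value does not.

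Cox8a, a small membrane subunit, gave 2727 and 2222 in the E14.5 control, 3000 and 2887 in the E14.5 mutant, 5987 and 6442 in the E18.5 control and 4466 and 4279 in the E18.5 mutant. It rose in both genotypes, 2.51-fold (2.20 to 2.90) in controls and 1.49-fold (1.43 to 1.55) in mutants. A second bright probe set of Cox8a gave 2.56 and 1.51, and a dimmer one gave 0.945 and 0.936. Cox6b1, which faces the intermembrane space, gave 4426 and 4230, 3622 and 4079, 4974 and 5407, and 2948 and 3115. Its control over mutant ratio at E18.5, 1.71 (1.60 to 1.83), was the highest of the complex IV genes counted, with a control stage ratio of 1.20 (1.12 to 1.28) that was not separated. A second bright probe set of Cox6b1 gave 1.67 and 1.72 (1.66 to 1.78) for the same ratios. Its stage value thus depends on the probe set.

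Cox4i1 and Cox7a2l stood closest to equal between the E18.5 pools among the general subunits. Cox4i1, the general form of subunit 4, gave 4344 and 4184 in the E14.5 control, 4537 and 4664 in the E14.5 mutant, 7211 and 7197 in the E18.5 control and 5287 and 5841 in the E18.5 mutant. It rose 1.69-fold (1.66 to 1.72) in controls and was 1.21-fold (1.13 to 1.29) higher with stage in mutants, with 1.29 (1.23 to 1.36) between the E18.5 pools, not separated. Cox7a2l, which links complexes III and IV into supercomplexes, gave 1932 and 2175 in the E14.5 control, 2315 and 2252 in the E14.5 mutant, 2949 and 2963 in the E18.5 control and 2621 and 2921 in the E18.5 mutant. The E18.5 ratio was 1.07 (1.01 to 1.13), and 2 further probe sets of the gene gave 1.06 and 1.07.

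Of 7 isoforms restricted to muscle, lung or testis 4 were counted, and 0 of these 4 were separated in any of the 4 comparisons. Of all genes counted, 0.365% to 16.1% were separated and higher and 1.56% to 7.45% lower in a single comparison. A count of 0 among 4 thus does not set these isoforms apart from genes in general. Their median log2 ratio between the E18.5 pools was −0.05, near the −0.03 of all genes counted, against 0.63 for the 40 other members counted. Cox4i2, the form of subunit 4 known from lung, gave 275 and 290 in the E14.5 control, 276 and 249 in the E14.5 mutant, 285 and 274 in the E18.5 control and 301 and 255 in the E18.5 mutant. Cox6a2, the muscle form of subunit 6a, gave 304 and 258, 245 and 287, 283 and 241, and 306 and 257 in the same order. All pools overlapped for both genes, whose signals lay not far above the minimum of 188 units.

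The testis forms Cox6b2 and Cox8c overlapped as well. Cox6b2 gave 605 and 624 in the E14.5 control, 855 and 466 in the E14.5 mutant, 553 and 936 in the E18.5 control and 720 and 1097 in the E18.5 mutant, so its duplicates disagreed more than its pools. Cox8c gave 870 and 829, 831 and 868, 938 and 839, and 891 and 807. Cox7a1, the muscle and heart form of subunit 7a, was below the minimum on 6 arrays, at 108 and 102, 109 and 111, and 119 and 113 in the E14.5 control, E14.5 mutant and E18.5 mutant. On the E18.5 control arrays it gave 250 and 302, above their 40th percentiles of 181 and 177, and no ratio is given because the other pools were dim. It was thus highest in the E18.5 control, unlike the 4 counted isoforms. Cox7b2, a testis form, gave 55.5 and 52.2, 37.1 and 49.8, 59.5 and 48.3, and 62.5 and 44.3 in the order of pools used above, and Cox8b, a muscle form, gave 154 and 135, 153 and 140, 146 and 123, and 146 and 120. Both were dim on all 8 arrays. Cox7c, a general subunit, was read by a pair of probe sets whose means were below the minimum, and the brighter one gave 156 to 217, with the E18.5 control arrays, at 217 and 201, above their own 40th percentiles.

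Markers of striated muscle did not move with Cox7a1. The summed signal of 8 muscle genes was 1916 and 1784 in the E14.5 control, 1866 and 1882 in the E14.5 mutant, 1762 and 1736 in the E18.5 control and 1955 and 1739 in the E18.5 mutant, with Myh8 and Actn2 below the minimum on all arrays. Brown fat genes summed to 1573 and 1810, 1925 and 1583, 4735 and 4622, and 3394 and 3450 in the same order, most of it Fabp4, which is not specific to that tissue. Ucp1 (184 to 240), Cidea and Adipoq, also of this list, were near or below the minimum on all arrays. The source of the Cox7a1 signal was not tested.

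ATP synthase had 17 subunits counted. Of these 11 were separated and higher with stage in controls (median log2 0.68), 0 were separated between the mutant stages (−0.21) and 15 were separated and higher in the E18.5 control than in the E18.5 mutant (0.63). The catalytic head and central stalk, formed by Atp5a1, Atp5b, Atp5c1, Atp5d and Atp5e, had all 5 genes separated in controls, with a median of 0.79. Atp5e, the smallest subunit of the stalk, gave 1140 and 1192 in the E14.5 control, 1427 and 1136 in the E14.5 mutant, 2307 and 2412 in the E18.5 control and 1252 and 1545 in the E18.5 mutant. It rose 2.02-fold (1.93 to 2.11) in controls and was 1.69-fold (1.49 to 1.93) higher than in the E18.5 mutant. Atp5a1, the alpha subunit, gave 4709 and 3904, 4749 and 4850, 7336 and 7526, and 5758 and 5868 in the same order, so that the E18.5 mutant stood at 0.782 (0.765 to 0.800) of the control. Its 1.73-fold (1.56 to 1.93) stage ratio in controls turned to −0.16 on the log2 scale as the mean over its 3 probe sets, of which 1 gave 0.271.

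The 3 genes Atp5g1, Atp5g2 and Atp5g3 encode the same mature subunit of the proton-carrying ring, and they parted. Atp5g1 gave 1369 and 1270 in the E14.5 control, 1705 and 1388 in the E14.5 mutant, 2574 and 2748 in the E18.5 control and 963 and 1255 in the E18.5 mutant. The E18.5 mutant was the lowest pool and the E18.5 control the highest, 2.40-fold (2.05 to 2.85) apart, the widest E18.5 ratio of the members counted. Atp5g2 gave 2168 and 2046, 2544 and 2282, 3062 and 3245, and 2374 and 2863, a ratio of 1.20 (1.07 to 1.37) at E18.5, which was the lowest of the ATP synthase genes. Atp5g3 gave 7602 and 7524, 7577 and 7708, 10208 and 8865, and 6991 and 6547, with 1.41 (1.27 to 1.56).

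The 4 genes of the peripheral stalk (Atp5h, Atp5j, Atp5o and Atp5pb), which holds the head still against the ring, were all separated and higher in the E18.5 control than in the E18.5 mutant, with a median log2 ratio of 0.72. Atp5h gave 2997 and 3037 in the E14.5 control, 3344 and 2903 in the E14.5 mutant, 4621 and 4856 in the E18.5 control and 2481 and 3115 in the E18.5 mutant, a ratio of 1.69 (1.48 to 1.96) at E18.5. Atp5o gave 2621 and 2465 in the E14.5 control, 2990 and 2666 in the E14.5 mutant, 4188 and 4200 in the E18.5 control and 2272 and 2603 in the E18.5 mutant, a ratio of 1.72 (1.61 to 1.85). All 5 genes of the membrane part (Atp5j2, Atp5k, Atp5l, Atp5md and Atp5mpl) were separated too, with a median of 0.63. Atp5md, a small subunit that steadies dimers of the enzyme, gave 1985 and 2086, 2269 and 2154, 3635 and 3745, and 1604 and 1734, and its ratio of 2.21 (2.10 to 2.33) was the second highest of the complex. In the membrane part only 2 genes, Atp5md and Atp5mpl, were separated with stage in controls.

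**Figure D2:**
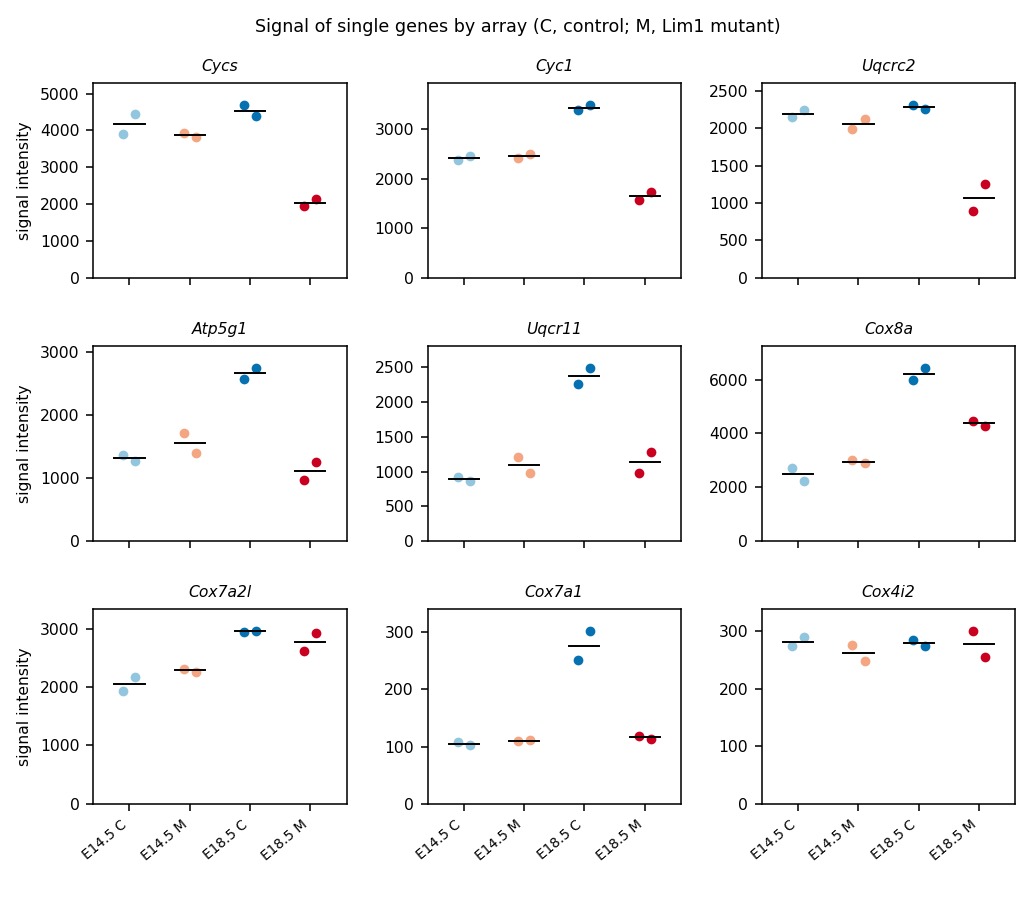
Signal intensity (linear axis from 0) of 9 genes, with 1 point per array and a line at the mean of the 2 arrays of each pool. By brightest probe sets, Cycs and Uqcrc2 are near level over 3 pools and low in the E18.5 mutant. Atp5g1 and Uqcr11 are high in the E18.5 control alone, Cox8a is intermediate in the E18.5 mutant, and Cox4i2 is level.

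By order of pools, both E18.5 control arrays lay above all 6 other arrays in 39 of 44 members (88.6%), against 15.2% of all genes counted. The 5 exceptions, by their brightest probe sets, were Cox4i2, Cox6a2, Cox6b2, Cox8c and Cycs. Both E18.5 mutant arrays lay below all others in 15 members (34.1%, against 5.86%), 8 of them ATP synthase genes, the others being Cox6a1, Cox6b1, Cox7a2, Cyc1, Cycs, Sdhb and Uqcrc2. In 10 members the E18.5 mutant instead lay above both E14.5 pools (22.7%, against 24.5%), among them Atp5a1, Atp5b, Cox4i1, Cox8a, Uqcr10 and Uqcrh. The 2 E14.5 pools overlapped in 23 members (52.3%, against 60.3%).

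The stage change itself was compared between genotypes as the log2 stage ratio in controls minus the log2 stage ratio in mutants. The difference was called separated where the lowest ratio over pairings in one genotype was at least 25% above the highest in the other. The median difference over the members was 0.62 (0.54 to 0.80 over the 16 pairings), with 32 of 44 members separated and higher and 0 lower, against 6.26% and 0.632% of all genes, whose median was 0.01. The count of 32 became 20 after quantile normalization. Atp5g1 had the widest difference, 1.49 (1.06 to 1.94), followed by Uqcrq at 1.38 (0.82 to 1.94) and Uqcr11 at 1.36 (0.91 to 1.83). Cox7a2l had the smallest of the general subunits, 0.25 (0.06 to 0.44), and the 4 restricted isoforms lay between −0.19 and 0.07.

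**Figure D3:**
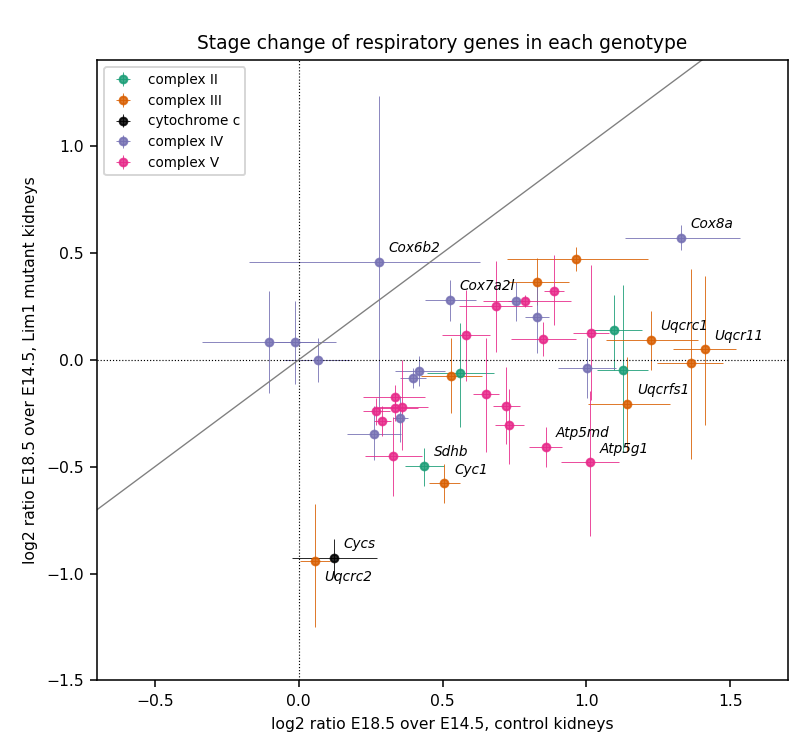
Log2 stage ratio (E18.5 to E14.5) in control kidneys (horizontal axis) and in Lim1 mutant kidneys (vertical axis) for the 44 genes counted, coloured by complex, with bars for the range over array pairings and a line of equality. Nearly all genes lie right of 0 and below the line. By brightest probe sets, Cycs and Uqcrc2 lie near 0 in controls and near −0.93 in mutants, and Cox8a lies high on both axes.

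Other probe sets of the members, 38 in all, leaned the same way between the E18.5 pools. They were above 1 in 32 of 38 between the E18.5 control and mutant (median ratio 1.63) and in 31 of 38 with stage in controls (1.39), but in 16 of 38 with stage in mutants (0.948). Among the 26 genes with several counted probe sets, all pointed the same way in 21 for the E18.5 pools, the others being Atp5j2, Cox8c, Cycs, Sdha and Uqcrq. Agreement was lower elsewhere, in 20 of the 26 for the control stages, 16 for the mutant stages and 15 for the E14.5 pools. For Uqcrq, 2 further probe sets gave 0.903 and 0.946 against 2.07 from the brightest one.

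Other mitochondrial genes were counted by the same rules. Of all genes counted, 6.93% were separated and higher in the E18.5 control than in the E18.5 mutant. With stage in controls 16.1% were separated and higher, and with stage in mutants 7.45% were separated and lower. Of complex I, the entry point of electrons from NADH, 30 of 33 genes were separated and higher in the E18.5 control than in the E18.5 mutant (median log2 0.72), 21 with stage in controls, and 8 were separated and lower with stage in mutants. Ndufb10 was 2.13-fold (1.79 to 2.59) and Ndufs1, with iron-sulfur clusters, 2.11-fold (1.86 to 2.42) higher in the E18.5 control, whereas Ndufa7 gave 0.991. In the citric acid cycle, 11 of 12 genes were separated and higher at E18.5 (0.83), 8 with stage in controls, and 5 were lower with stage in mutants. Idh3a of isocitrate dehydrogenase was 2.20-fold (1.96 to 2.49) and fumarase, Fh1, 2.03-fold (1.82 to 2.27) higher. The ATP synthase inhibitor Atpif1 followed the enzyme at E18.5, 1.81-fold (1.62 to 2.04) higher in the control, and was lower with stage in mutants, at 0.635 (0.535 to 0.746).

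Genes that build mitochondria gave lower medians. Between the E18.5 pools, 10 of 34 assembly factors (0.34) and 6 of 16 import genes (0.31) were separated and higher in the control. So were 16 of 76 mitochondrial ribosomal genes (0.31). In these lists 0 were lower, and the shares of all genes were 6.93% higher and 1.78% lower. Cox17, a copper carrier for complex IV, was the highest assembly factor at 1.91-fold (1.75 to 2.09), and Oxa1l, which inserts subunits into the inner membrane, was among the lowest at 0.893. With stage in mutants, 21 of the 76 mitochondrial ribosomal genes (27.6%) were separated and lower and 0 higher, against 7.45% and 6.14% of all genes. Of 18 genes for transcription and mitochondrial DNA 3 were separated and higher at E18.5, with a median of 0.02. These included Esrrg, a nuclear receptor of oxidative genes, at 2.28-fold (2.22 to 2.35) and Ppargc1a, its coactivator, at 1.93-fold (1.90 to 1.97). Of all 18, 8 were below 1 between the E18.5 pools, the lowest at 0.793, and 0 were separated and lower. Cytosolic ribosomal genes, a comparison added after the values had been seen, had a median of 0.01, with 0 of 40 separated.

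**Figure D4:**
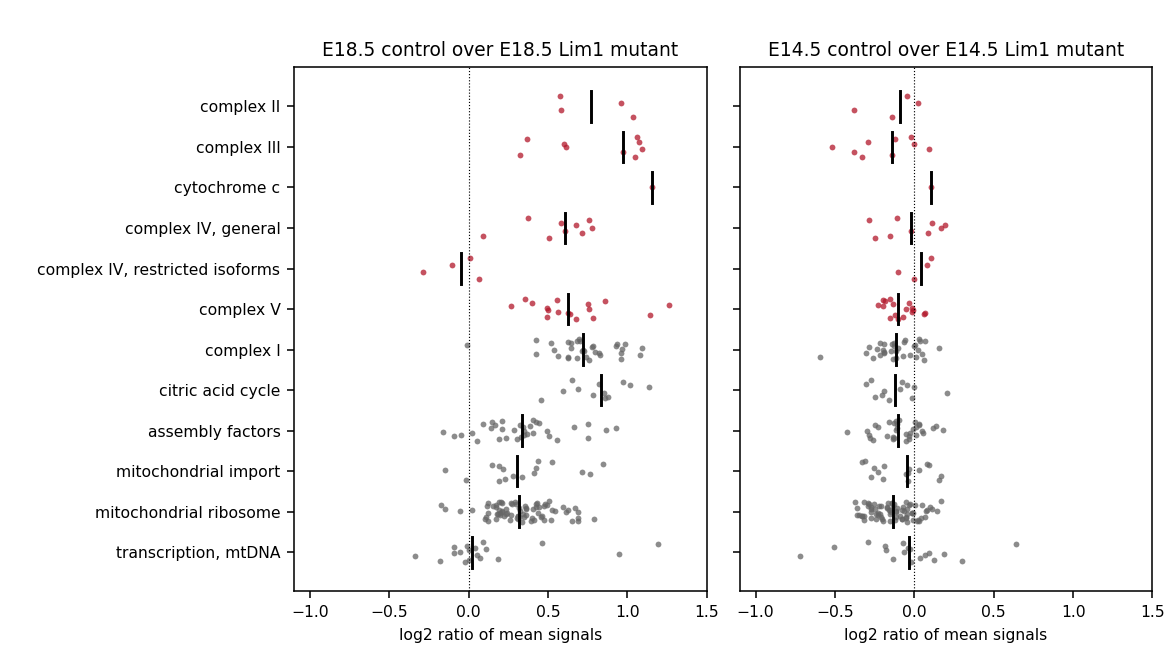
Log2 ratio of mean signals, control over Lim1 mutant, at E18.5 (left) and E14.5 (right), with 1 point per gene counted and a bar at the median of each group. Red points are the members and grey points other mitochondrial lists; at E18.5 complexes I to V and the citric acid cycle lie right of 0 and the restricted isoforms of complex IV around 0, while at E14.5 all groups lie around 0.

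Summed markers of nephron segments and of the collecting duct were set beside the members. The 10 proximal tubule genes, Slc34a1, Lrp2 and Cubn among them, summed to 2604 and 2385 in the E14.5 control, 2220 and 2378 in the E14.5 mutant, 21952 and 22315 in the E18.5 control and 2600 and 2293 in the E18.5 mutant, with 3, 3, 10 and 4 of the 10 above the minimum on both arrays. The 6 genes of the loop of Henle and distal tubule summed to 3181 and 3292, 2969 and 3009, 9981 and 9684, and 3433 and 3501. The 4 collecting duct genes summed to 950 and 927, 927 and 868, 4225 and 4278, and 1214 and 1162. By these sums the E18.5 control was the highest pool for each list, as for 39 of the 44 members. The other comparisons did not match in this way. With stage in mutants the loop and collecting duct sums were higher and the proximal tubule sums overlapped, where the median member ratio was 0.966. At E14.5 the loop sum was higher in the control than in the mutant, where the median member ratio was 0.942. Single genes differed. Of those counted, 9 of 10, 4 of 6 and 2 of 3 in these lists were separated and higher than in the E18.5 mutant, against 6.93% of all genes. In the loop of Henle and distal tubule list 2 of the 6 were below 1, the lowest at 0.944. Nephron progenitor genes summed to 3284 and 3556, 4246 and 4134, 1930 and 2031, and 3216 and 3593 and were lowest in the E18.5 control. Erythroid genes stayed between 835 and 1033. The part of these cell types in the respiratory ratios was not tested.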

How the data were processed

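RNA of 4 pools of whole embryonic kidneys was measured on 2 arrays each. The deposited signal intensities are on a linear scale. The authors scaled the arrays in the Affymetrix software, then used dChip to model 1 signal for each probe set and to normalize the arrays by an invariant set. The array medians found here are not those stated after that normalization, so which step the deposited values come from is not settled. Per the labels, arrays of a pool share 1 RNA. Detection calls and raw probe values were not used here, and background was not corrected further. Invariant-set normalization assumes that many probe sets keep their rank between arrays.

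Symbols came from the platform table, which gave 34958 probe sets 1 gene, 932 several and 9211 none. Genes were read by their brightest probe set and counted where its mean reached the 40th percentile, 188 units. Ratios were taken between means of duplicate arrays, with the range over 4 pairings as error. The members, the other lists, the size rules and the named genes were chosen with earlier results of these data known. Every member could be named. Values on every array are given for members past 2-fold, the restricted isoforms, and the 2 highest and the lowest E18.5 ratio of each complex. From the other mitochondrial lists only some genes were named. High ratios were named for complex I, the citric acid cycle, the assembly factors and the transcription list. Low ones were named for complex I and the assembly factors only. The counting was tested on simulated data. Alternatives were quantile normalization, median scaling, other minimum signals, an offset, the mean over probe sets, geometric means, a 1.5-fold separation and each array left out. Precision is limited by how few arrays there are. The tools were pandas 2.3.3 and numpy 2.4.6 in Python 3.11.15, and plots came from matplotlib 3.10.9.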

Additional observations from a re-analysis of the deposited data

Results flagged for a closer look

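In 16 of 44 members the stage change ran in opposite directions in the genotypes, with the later control arrays higher in every pairing and the later mutant arrays lower in every pairing. This held for 36.4% of the members and 5.1% of all genes counted. The log2 stage change in controls minus that in mutants was Atp5c1 1.04, Atp5g1 1.49, Atp5g3 0.51, Atp5j 0.51, Atp5j2 0.57, Atp5k 0.56, Atp5l 0.58, Atp5md 1.26, Atp5o 0.94, Atp5pb 0.78, Cox6a1 0.48, Cox6b1 0.61, Cox7a2 0.63, Cyc1 1.08, Sdhb 0.93 and Uqcrc2 1.00. In 16 of 44 members (36.4%, against 9.43% of all genes) the genotype ratio ran in opposite directions at the stages, with control above mutant in every pairing at E18.5 and below it in every pairing at E14.5. The log2 ratio of control over mutant at E18.5 minus that at E14.5 was Atp5a1 0.51, Atp5b 0.75, Atp5c1 1.04, Atp5g1 1.49, Atp5g2 0.46, Atp5md 1.26, Atp5o 0.94, Cox4i1 0.48, Cox5a 1.04, Cox7a2l 0.25, Cox8a 0.76, Sdhc 0.96, Uqcr11 1.36, Uqcrc1 1.13, Uqcrfs1 1.35 and Uqcrq 1.38. Some genes stand in both lists because the same 4 pools give both values. Both lists rest on brightest probe sets, and other probe sets did not always repeat the reversal. Between the mutant stages, a further probe set of Cox6a1 was above 1, and that of Cox6b1 was not below 1 in every pairing. At E14.5, the further probe sets of Cox5a and the dimmest of Atp5a1 were above 1. Further probe sets of Cox7a2 and Uqcrc2 kept the stage reversal, and a second bright one of Cox8a kept the genotype reversal. How many did so was not counted. The differences were not tested, since each pool is 1 biological replicate.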

How the results depend on the processing

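Of 368 summary values under 16 alternatives, 332 stayed close to those reported and 36 moved. Median log2 ratios over the members were, after quantile normalization, 0.51 for the stages of controls, 0.052 for the stages of mutants, 0.48 for the E18.5 pools (control over mutant), −0.017 for the E14.5 pools and 0.50 for the difference of stage changes. The control stage median was 0.66 with median scaling, 0.57 without a minimum signal and 0.51 with the mean over all probe sets, which gave −0.16 for the mutant stages. Quantile normalization gave 6 members past the 2-fold criteria for the control stages, 4 separated and higher for the mutant stages, 1 past the 2-fold criteria at E18.5, 0 separated and lower at E14.5 and 20 separated in stage change. The mean over all probe sets gave 5 past the 2-fold criteria for the control stages, 1 separated and higher for the mutant stages and 5 past the 2-fold criteria at E18.5. With a 1.5-fold separation, 0 members were higher and 2 lower for the mutant stages, 17 were higher at E18.5, 0 lower at E14.5 and 15 higher in stage change.

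With each array left out in turn, the control stage median lay between 0.59 and 0.65, with 31 to 33 separated and higher, 0 lower and 8 to 10 past the 2-fold criteria. The mutant stage median lay between −0.12 and −0.03, with 2 to 5 higher, 4 to 9 lower and 0 to 1 past the 2-fold criteria and lower. The E18.5 median lay between 0.57 and 0.70, with 34 to 38 higher, 0 to 1 lower and 3 to 10 past the 2-fold criteria, and the E14.5 median between −0.14 and −0.03, with 0 to 1 higher and 1 to 4 lower. The median difference of stage changes lay between 0.59 and 0.71, with 32 to 36 higher. Of 1152 values of single genes, 1061 stayed close, 90 moved and 1 reversed, the control stage ratio of Atp5a1, at −0.16 on the log2 scale with the mean over its probe sets. The cause was not tested. No paired analysis was possible because no test was made and the duplicate arrays of a pool share 1 RNA. Values of dim genes are bounded by background, which was not measured here.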
